A study of Drosophila melanogaster with 48 samples.

Results

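The yolk protein genes Yp1, Yp2 and Yp3 of Drosophila melanogaster encode the main proteins stored in the egg. They were followed here as 3 of the 16995 genes counted in 48 libraries of single fly brains, and were taken by their gene symbols, each of which was listed once in the table of counts. The study asked how brains of either sex respond to a blow to the head when they are exposed to near-infrared light afterwards. Brains of w1118 and Tau-KO flies, labelled female or male, were collected from controls without a strike and at 1, 2 and 4 hr after a single strike of a high-impact trauma device, with 3 libraries in each of the 16 groups. P-values measure the spread between these libraries, which may have shared a strike and an exposure to the light. The w1118 flies are a white-eyed laboratory stock. Flies were adult, mated and 10 to 14 days old, which the paper states for all its assays. Tau-KO samples are labelled KO, and the paper names Tau knockout flies. The extent of the deletion is not given in the sources used here. Every isolated brain, the controls included, received 2 hr of the light before its RNA was taken. The strike falls on the whole fly, and the brain was dissected from it afterwards, so the values are those of the dissected tissue and of whatever came with it.

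Yolk proteins are made in the fat body and in the follicle cells of the ovary of mature females, secreted into the haemolymph and taken up by the growing oocyte through the receptor Yolkless. They are relatives of lipases. In the fat body their transcription is set by the sex determination pathway, whose last factor, Doublesex, activates the genes in its female form and represses them in its male form, and it responds to juvenile hormone, ecdysone and feeding. Fat tissue also lies inside the head around the brain. In bulk RNA, fewer cells of a type and less RNA per cell cannot be told apart.

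In the BDGP6 annotation all members lie on the X chromosome. Yp1 (FBgn0004045) spans X:10053811-10055498 on the plus strand with 2 exons and 439 codons. Yp2 (FBgn0005391) spans X:10050951-10052636 on the minus strand with 2 exons and 442 codons, so that the pair is transcribed away from each other across 1174 bases that hold no other gene. Yp3 (FBgn0004047) lies 3704 kb further along, at X:13759546-13761547 on the plus strand, with 3 exons and 420 codons. These positions are not those of the counting, which used the older build dm3. The antisense gene asRNA:CR45601 overlaps Yp1 and had no count in any library under its older symbol CR45601. The 3′ end libraries give about 1 read for each molecule caught, so counts were not divided by length, and whether reads were counted by strand is not given in the sources used here.

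Counts assigned to genes ranged from 39517 to 1668925 per library, with a median of 582951.5. Each pair of libraries was compared by a chi-square divided by its degrees of freedom, for which genes needed 20 counts or more between them. A value of 1 is sampling noise, and larger values also come with greater depth. For 32 libraries the nearest other library lay at 1.36 to 2.30, and that library was from the same group in 0 of 32, from the other sex label in 16 and from the other strain label in 18. The other 16 libraries stood apart, at 4.36 to 22.7 from the nearest, and they were the same 16 when Yp1, Yp2 and Yp3 were left out of the measure. They comprised 8 libraries labelled female and 8 labelled male, and 8 of either strain. The RNA of roX1, which belongs to the male dosage compensation complex and is made mainly in males, had a median of 910 CPM (counts scaled to a common library size by TMM) in the 24 libraries labelled female and 995 in the 24 labelled male, and 20 of those labelled female fell inside the range of those labelled male. For roX2, listed with roX1 as a dosage compensation RNA, 22 of the 24 labelled female fell inside that range. Its log2 fold change, female minus male averaged over conditions, was -0.54 (SE 0.21) in w1118 and -0.31 (SE 0.14) in Tau-KO. That of roX1 was -0.36 (SE 0.26) and -0.19 (SE 0.10), and none of these was called. Sex is therefore named throughout by the label of the library. Counts of tau were present in 24 of 24 Tau-KO libraries, from 7 reads upwards, and tau was not called between the strains, with Tau-KO minus w1118 at 0.10 (SE 0.16) under the female and 0.05 (SE 0.17) under the male label, averaged over conditions. The deleted part of the gene was not checked, so the strain is also named by label. Neuronal genes were found throughout, and the 10 genes of that list summed to 2418 to 5178 CPM.

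Yp1 was abundant in brains of either label. Its level, the TMM-scaled CPM, had a median of 1851 over the 48 libraries, and Yp2 and Yp3 had medians of 540 and 325. By mean level, which the highest library enters, they took ranks 72, 238 and 462 of 5821 genes. Together they made up a median of 0.279% of the counts assigned to genes. The counts fell in the order Yp1, Yp2, Yp3 in 47 of 48 libraries, and the exception was the shallowest, Tau-KO male control replicate 1, with 14 counts of Yp2 and 19 of Yp3.

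Most libraries held nearly the same amount. Over the 32 libraries that did not stand apart, Yp1 ranged from 1057 to 2318 CPM, Yp2 from 269 to 794 and Yp3 from 271 to 455, with coefficients of variation of 14.6%, 21.6% and 13.8%. In these libraries the medians of Yp1 were 1948 CPM for the label female and 1844 for the label male, those of Yp2 were 558 and 532, and those of Yp3 were 331 and 345. The ranges of the sex labels overlapped for each member.

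**Figure D1:**
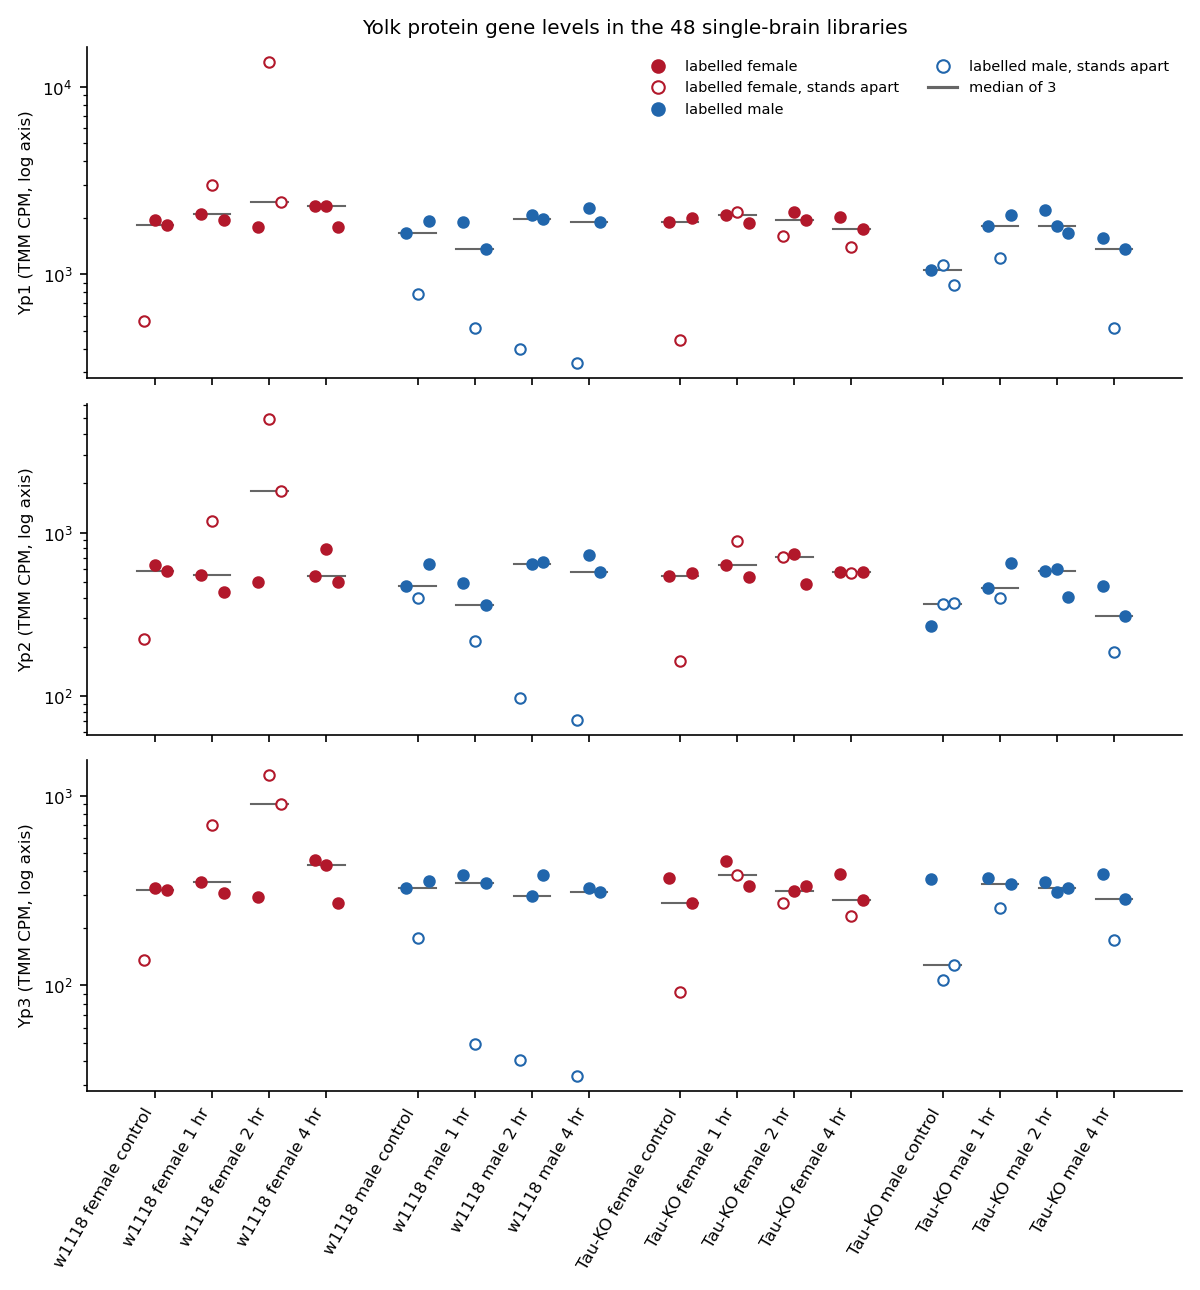
Levels of Yp1, Yp2 and Yp3 (TMM CPM, log axis) in each of the 48 libraries by group. Points are libraries (red, labelled female; blue, labelled male; open, libraries that stand apart) and grey lines are the medians of 3. Filled points lie between 1057 and 2318 CPM for Yp1 in all groups, while open points run from 335 to 13506.

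The extremes all belonged to the libraries that stood apart. There Yp1 ran from 335 to 13506 CPM, Yp2 from 71.6 to 4987 and Yp3 from 33.3 to 1281. All 3 members lay above the highest of the 32 in 3 libraries, which were w1118 female 1 hr replicate 2, w1118 female 2 hr replicate 2 and w1118 female 2 hr replicate 3. All 3 lay below the lowest of the 32 in 6 libraries, which were w1118 female control replicate 1, w1118 male 1 hr replicate 2, w1118 male 2 hr replicate 1, w1118 male 4 hr replicate 1, Tau-KO female control replicate 2 and Tau-KO male 4 hr replicate 2. Among the libraries that stood apart, the 8 labelled female held 447 to 13506 CPM of Yp1 (median 1875) and the 8 labelled male held 335 to 1226 (median 650). That division was made on whole-library values after they were seen, and no test was run on it. The libraries that stood apart also differed in the share of counts assigned to no gene. It was 45.7% in Tau-KO female control replicate 2, 40.1% in Tau-KO male 4 hr replicate 2 and 23.1 to 30.7% in the rest of them. In the 32 it was 31.4 to 52.8%. The part of this difference in the yolk protein levels was not tested.

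The highest levels came from w1118 female 2 hr replicate 2. It held 18502 counts of Yp1, 6832 of Yp2 and 1755 of Yp3, or 1.75% of its 1547843 counts assigned to genes (95% exact binomial interval 1.73 to 1.77%, counting error only). In CPM this was 7.30 times the median of the 48 libraries for Yp1, 9.24 times for Yp2 and 3.94 times for Yp3. It was also the library with the least roX1, at 53.3 CPM from 73 counts, where the other 47 libraries held 699 to 1590 CPM. Other marker genes moved with it. The summed level of 12 photoreceptor genes was 37326 CPM, against 7628 to 9526 in the 32 libraries, that of 11 muscle genes was 478 against 3280 to 4503, and that of 13 genes of gut digestive enzymes was 62.0 against 673 to 1416. The neuronal genes were at their lowest sum of all libraries, 2418 CPM against 3700 to 5178 in the 32, and the haemocyte gene Hml was at 1.46 CPM against a median of 100. The fat body genes did not move one way. Their sum was 3580 CPM, against 4764 to 6487 in the 32 libraries, with apolpp at its lowest of all 48 (766 CPM, median 3066), while fon (793, median 208), Lsp1beta (264, median 101) and Apoltp (217, median 64.2) were at their highest. In this library the 7 genes of the female germline had no count. The part of these cell types in the yolk protein levels was not tested.

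**Figure D2:**
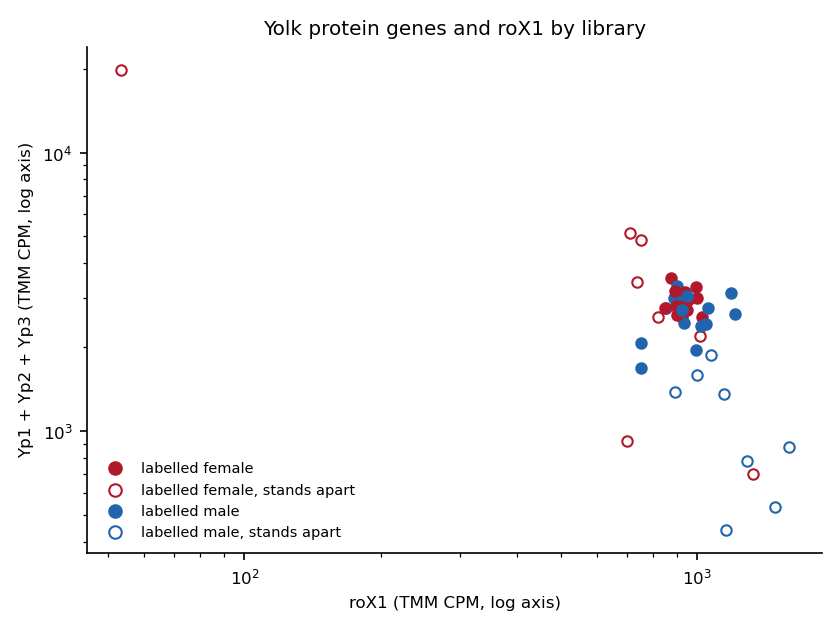
Summed level of Yp1, Yp2 and Yp3 against the level of roX1 in each library (TMM CPM, log axes). Red and blue points are libraries labelled female and male, and open points stand apart. Libraries of either label share 1 cloud, and w1118 female 2 hr replicate 2 lies alone at 53.3 CPM of roX1.

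The other high libraries were less extreme. In w1118 female 1 hr replicate 2, Yp1 stood at 2969 CPM, Yp2 at 1174 and Yp3 at 699, and in w1118 female 2 hr replicate 3 the levels were 2415, 1803 and 907 CPM. Their roX1 levels, 752 and 711 CPM, were near the lower end of the 48 libraries but far above that of replicate 2. Among the low libraries, w1118 male 4 hr replicate 1 had 131 counts of Yp1 in 494825 and w1118 male 2 hr replicate 1 had 148 in 410728. Their roX1 levels were 1159 and 1482 CPM. The low levels also occurred under the female label, where Tau-KO female control replicate 2 had 447 CPM of Yp1 with 1327 CPM of roX1, and w1118 female control replicate 1 had 561 CPM of Yp1 with 699 CPM of roX1.

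The levels of Yp1 and Yp2 rose and fell together. Over the 48 libraries, which differ in depth and come from 16 groups, Pearson's r between their log2 CPM was 0.94, that of Yp1 and Yp3 was 0.90 and that of Yp2 and Yp3 was 0.87. Over the 32 libraries that did not stand apart, r was 0.87 for Yp1 and Yp2, but 0.22 for Yp1 and Yp3 and 0.15 for Yp2 and Yp3. These are descriptions across libraries. In counts, Yp2 was 0.214 to 0.746 of Yp1 (median 0.314) and Yp3 was 0.0949 to 0.375 of Yp1 (median 0.175). The highest Yp2 and Yp3 shares were both in w1118 female 2 hr replicate 3, at 0.746 (95% interval 0.703 to 0.792) and 0.375 (0.348 to 0.404). The lowest Yp3 share was in w1118 female 2 hr replicate 2, at 0.0949 (0.0903 to 0.0996), so the intervals of these replicates of 1 group did not meet.

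**Figure D3:**
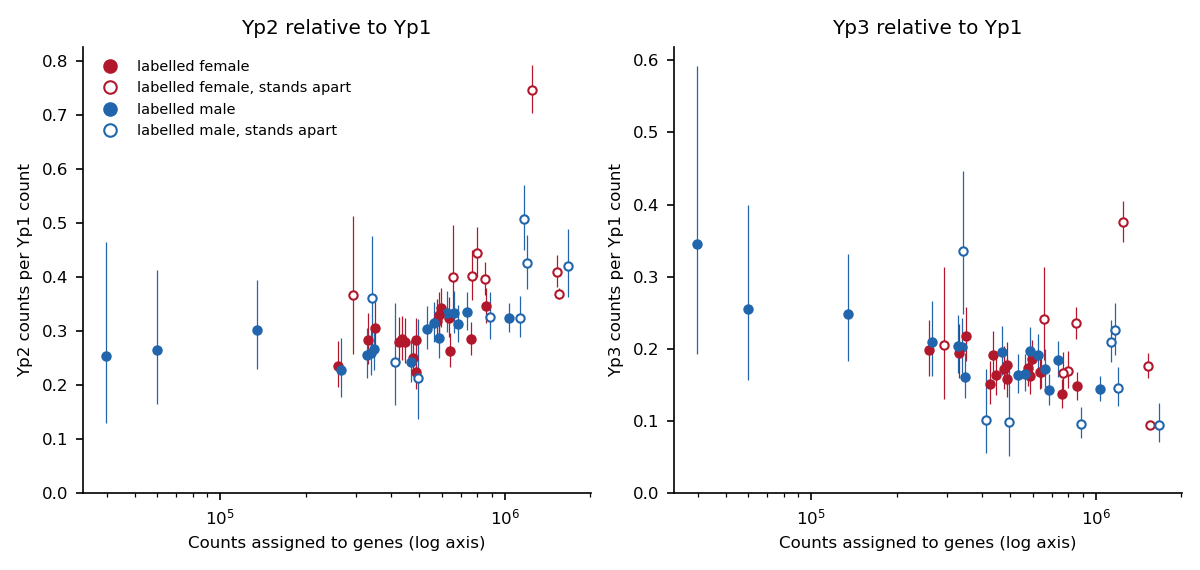
Counts of Yp2 (left) and Yp3 (right) per count of Yp1 against the counts assigned to genes (log axis), with 95% exact binomial intervals for counting error. Colours and open points are as in the plot of levels. The medians are 0.314 for Yp2 and 0.175 for Yp3, and w1118 female 2 hr replicate 3 is highest in either panel.

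The spread between replicates set how finely the groups could be compared. In the fit of all 48 libraries the biological coefficient of variation was 0.50 for Yp1, 0.50 for Yp2 and 0.52 for Yp3, while the trend for genes of their abundance was 0.31 to 0.34, and 95.5 to 96.5% of the genes had a lower ratio to their trend. Without the 16 libraries that stood apart it was 0.12, 0.16 and 0.14, beside a trend of 0.13 to 0.14. Of the genes, 44.0%, 85.2% and 58.5% then had a lower ratio to their trend, so Yp2 stayed the more variable. Against counting error alone, the chi-square per degree of freedom over the 32 libraries was 8.69 for Yp1, 7.16 for Yp2 and 3.69 for Yp3, and the medians of genes within 2-fold of their abundance were 6.35, 3.41 and 2.60.

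By mean level, Yp1 was highest in the w1118 females at 2 hr, with 5899 ± 6595 CPM (SD, n = 3), and lowest in the Tau-KO male controls, with 1018 ± 128 CPM (SD, n = 3). Yp2 and Yp3 were likewise highest in the w1118 females at 2 hr, with 2429 ± 2310 and 826 ± 500 CPM. The lowest mean of Yp2 was that of the Tau-KO males at 4 hr, with 322 ± 143 CPM, and the lowest of Yp3 was that of the Tau-KO male controls, with 200 ± 143 CPM. When the 16 groups were put in order of their means, the libraries of each group overlapped with those of the next in all 15 neighbouring pairs for each of the 3 members.

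Females were compared with males first in the controls. In w1118 control libraries labelled female, Yp1 was at 561, 1948 and 1823 CPM, and in those labelled male it was at 1651, 784 and 1929 CPM. Each label had a single low library and the rest lay together. The log2 fold change, female minus male, was -0.01 (SE 0.71) for Yp1, -0.07 (SE 0.72) for Yp2 and -0.13 (SE 0.74) for Yp3. The groups overlapped, as they did for all but 6.01% of the genes, and 1.13% of the genes were called at an unadjusted p. In Tau-KO control libraries labelled female, Yp1 was at 1903, 447 and 1982 CPM, and in those labelled male at 1057, 1122 and 875 CPM. The males were all below a pair of the females and above the third, and the log2 fold changes were 0.47 (SE 0.37), 0.26 (SE 0.36) and 0.54 (SE 0.42) for Yp1, Yp2 and Yp3. None was called, beside 0.0199% of the genes at an adjusted and 9.93% at an unadjusted p, and 10.5% of the genes did not overlap.

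Averaged over the control and the times after injury, the members were higher under the female label in w1118, but none passed the call, which asked for a change of more than 1 on the log2 scale in either direction with an adjusted p under 0.05 over all genes tested. The differences were 0.85 (SE 0.36) for Yp1, 0.93 (SE 0.37) for Yp2 and 0.83 (SE 0.37) for Yp3, with adjusted p of 1.00 each in edgeR's quasi-likelihood test. At an unadjusted p under 0.05 with the same fold none of the 3 was called either, beside 0.310% of the 5477 genes. Without replicate number 2 of every group, the number of the highest library, the differences were 0.35, 0.50 and 0.45. Without replicate number 3 they were 1.14, 1.21 and 1.16, and none was called in either setting. Without the libraries that stand apart they were 0.05 (SE 0.08), -0.06 (SE 0.11) and -0.05 (SE 0.11).

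In Tau-KO the same averages were smaller. They were 0.34 (SE 0.18) for Yp1, 0.47 (SE 0.18) for Yp2 and 0.21 (SE 0.20) for Yp3, each with an adjusted p of 1.00 in edgeR, and none was called, beside 0.897% of the 5015 genes at an unadjusted p. Without the libraries that stand apart, Yp1 was at 0.34 (SE 0.09, adjusted p = 0.0493, with 0.0493 to 1.00 over its alternatives) and Yp2 at 0.47 (SE 0.15), both under the fold limit, and Yp3 was at -0.02 (SE 0.13). In that fit the Tau-KO male control was represented by replicate 1 alone, with 39517 counts, and its variation was assumed to be that of the other groups.

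The response to injury was compared with the control within each strain and label. Of the 36 values (3 members in 12 comparisons), 0 were called at an adjusted p in edgeR, beside 0% of all genes in each of the 12 comparisons. At the unadjusted p, 6 of the 36 were under 0.05 and 3 also passed the fold, and DESeq2 called 0 at an adjusted p. The libraries of injured and control groups did not overlap in 5 of the 36. Over all genes, 5.71 to 14% did not overlap and 0.621 to 18.6% were called at the unadjusted p across the 12 comparisons. The 3 called values were the 3 members in w1118 females at 2 hr, where 5.4% of the genes were called. Yp1 in w1118 females at 1 hr was without overlap, beside 5.71% of the genes. The others were Yp1 and Yp2 in Tau-KO males, beside 7.24% at 1 hr and 13.5% at 2 hr. The share of genes under 0.05 whatever their fold was not counted.

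The largest differences were those of the w1118 females at 2 hr. Yp1 was at 1776, 13506 and 2415 CPM after injury and at 561, 1948 and 1823 CPM in the control. Yp2 was at 497, 4987 and 1803 CPM after injury and at 225, 630 and 580 CPM in the control, and Yp3 was at 291, 1281 and 907 against 136, 328 and 317 CPM. Replicates 2 and 3 after injury were above all controls, while replicate 1 lay among the controls for each member, so the groups overlapped. The log2 fold changes were 2.06 (SE 0.73) for Yp1, 2.37 (SE 0.75) for Yp2 and 1.68 (SE 0.75) for Yp3, with adjusted p of 0.570, 0.505 and 0.686 in edgeR. The 3 members were called as higher at the unadjusted p, as were 3.45% of the 5477 genes (5.4% in either direction), while 6.97% of the genes did not overlap. Without replicate 2 of the injured group the values were 0.53, 1.26 and 1.20. Without replicate 1 of that group they were 2.45, 2.81 and 2.05, and none was called in either setting. Without the libraries that stand apart, which left replicate 1 as the only library of this group, they were -0.08 (SE 0.19), -0.28 (SE 0.26) and -0.14 (SE 0.26). Without the filter on low counts Yp1 and Yp2 passed the adjusted call, at adjusted p of 0.0371 and 0.00932, where 26 genes passed in all, and over all alternatives these ran from 0.0371 to 1.00 and from 0.00932 to 1.00.

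At 1 hr the w1118 females held 2090, 2969 and 1948 CPM of Yp1, and at 4 hr they held 2294, 2318 and 1790 CPM. At 1 hr every injured library was above the controls, of which the highest was also at 1948 CPM after rounding, so replicate 3 exceeded it by less than 1 CPM, while replicate 2, which stood apart, was the highest. Groups did not overlap for 5.71% of all genes, and at 4 hr the groups overlapped, as for all but 8.12% of the genes. At an unadjusted p none of the members was called, beside 0.749% of the genes at 1 hr and 1.15% at 4 hr. The log2 fold changes at 1 hr were 0.68 (SE 0.71) for Yp1, 0.58 (SE 0.72) for Yp2 and 0.79 (SE 0.74) for Yp3, and those at 4 hr were 0.57 (SE 0.71), 0.36 (SE 0.72) and 0.57 (SE 0.74). Without control replicate 1, the low library, Yp1 was at 0.30 at 1 hr and at 0.18 at 4 hr. Without control replicate 2 it was at 0.96 and 0.84.

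In w1118 males, Yp1 was at 1887, 516 and 1362 CPM at 1 hr, at 397, 2067 and 1976 CPM at 2 hr and at 335, 2263 and 1889 CPM at 4 hr, against 1651, 784 and 1929 CPM in the control. Each of these groups held a single library far below the others, and all overlapped. The log2 fold changes over the 3 members ran from -0.51 for Yp2 at 1 hr to 0.05 for Yp1 at 4 hr, with standard errors of 0.71 to 0.77, and the lowest adjusted p in edgeR was 1.00. Of all genes, 8.05%, 6.35% and 6.79% did not overlap at 1, 2 and 4 hr, and 1.7%, 0.913% and 0.621% were called at an unadjusted p. They ran from -0.32 to 0.24 without the libraries that stand apart.

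**Figure D4:**
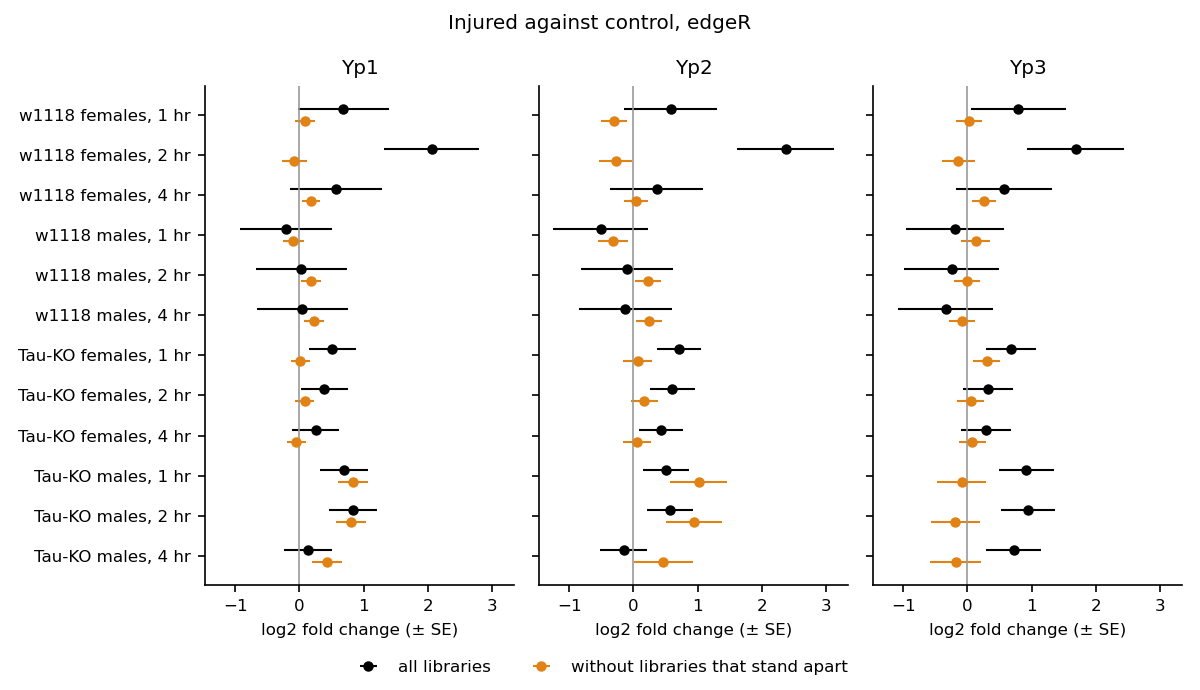
Log2 fold change of each member in injured against control libraries, with its standard error, for the 12 comparisons in edgeR. Black points are the fits of all libraries of a strain and orange points the fits without the libraries that stand apart. The black points of the w1118 females at 2 hr, at 2.06, 2.37 and 1.68, are the farthest from 0, and their orange points lie at -0.08, -0.28 and -0.14.

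In Tau-KO females, Yp1 was at 2078, 2154 and 1880 CPM at 1 hr, at 1596, 2135 and 1937 CPM at 2 hr and at 2005, 1402 and 1743 CPM at 4 hr, against 1903, 447 and 1982 CPM in the control. A pair of the controls lay among the injured libraries and the third was far below them. The log2 fold changes of the 3 members were all above 0, from 0.25 to 0.71, with standard errors of 0.35 to 0.39 and a lowest adjusted p of 0.720 in edgeR. None was called at an unadjusted p, beside 4.11%, 4.03% and 2.21% of the genes at 1, 2 and 4 hr, and none was without overlap, beside 7.28%, 11.4% and 8.08%. Without the low control, replicate 2, the values of Yp1 were 0.08 at 1 hr, -0.04 at 2 hr and -0.18 at 4 hr. Without control replicate 3 they were 0.81, 0.69 and 0.55. Without all libraries that stand apart the 9 values ran from -0.05 to 0.30.

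In Tau-KO males the controls were below the libraries at 1 and 2 hr for Yp1 and Yp2, and the lowest library was an injured one, 4 hr replicate 2. Yp1 was at 1057, 1122 and 875 CPM in the control, at 1799, 1226 and 2067 CPM at 1 hr, at 2187, 1802 and 1656 CPM at 2 hr and at 1558, 515 and 1361 CPM at 4 hr. Yp2 was at 269, 366 and 372 CPM in the control, at 461, 398 and 651 CPM at 1 hr and at 583, 600 and 401 CPM at 2 hr. For Yp1 and Yp2 all injured libraries at 1 hr and at 2 hr were above all controls, and so they did not overlap, which was the case for 7.24% of all genes at 1 hr and for 13.5% at 2 hr. At 4 hr all members overlapped, beside 14% of the genes that did not.

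The log2 fold changes of Yp1 in Tau-KO males were 0.70 (SE 0.37) at 1 hr, 0.84 (SE 0.37) at 2 hr and 0.13 (SE 0.38) at 4 hr, with adjusted p of 1.00, 0.686 and 0.851 in edgeR. Those of Yp2 were 0.50 (SE 0.36), 0.57 (SE 0.36) and -0.15 (SE 0.37). None passed the fold limit, beside 3.21%, 5.48% and 18.6% of the genes called at an unadjusted p. Yp3 was at 365, 107 and 128 CPM in the control, at 366, 257 and 342 CPM at 1 hr and at 352, 310 and 324 CPM at 2 hr, so that control replicate 1 lay among the injured libraries at 1 hr and above all of them at 2 hr. Its log2 fold changes were 0.92 (SE 0.42) at 1 hr, 0.95 (SE 0.42) at 2 hr and 0.72 (SE 0.43) at 4 hr, with adjusted p of 1.00, 0.686 and 0.308. Control replicate 1 had 39517 counts, 55 of them of Yp1, and control replicates 2 and 3 stood apart, so each control library was either shallow or unlike the others.

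Those libraries decided the values of Yp3. Without control replicate 1, Yp3 was at 1.44 at 1 hr, at 1.47 at 2 hr and at 1.23 at 4 hr, where it passed the call in edgeR (adjusted p = 0.0446, with 0.0446 to 0.875 over its alternatives), as did 527 genes in all. Without the libraries that stand apart, which left replicate 1 as the only control, Yp3 was at -0.09 (SE 0.38), -0.19 (SE 0.37) and -0.18 (SE 0.39), while Yp1 was at 0.83 (SE 0.24), 0.80 (SE 0.23) and 0.43 (SE 0.24). In that setting Yp1 and Yp3 thus differed in sign at each time.

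The difference of the injury response between the labels was tested directly, as the mean of 1, 2 and 4 hr against the control in females minus the same in males. In w1118 it was 1.15 (SE 0.82) for Yp1, 1.35 (SE 0.84) for Yp2 and 1.27 (SE 0.86) for Yp3, with adjusted p of 1.00 each in edgeR. Without the libraries that stand apart it was -0.04 (SE 0.18), -0.23 (SE 0.24) and 0.04 (SE 0.24). In Tau-KO it was -0.17 (SE 0.43), 0.27 (SE 0.41) and -0.43 (SE 0.48). None of the 6 values was called, beside 0% of all genes in w1118 and 0.0399% in Tau-KO at an adjusted p, and 1.64% and 18.4% at an unadjusted p.

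The strains were compared in a fit of all libraries. In female controls, Tau-KO minus w1118 was 0.00 (SE 0.59) for Yp1, -0.17 (SE 0.59) for Yp2 and -0.08 (SE 0.62) for Yp3. In male controls it was -0.52 (SE 0.60), -0.55 (SE 0.60) and -0.75 (SE 0.66), and for Yp2 the Tau-KO libraries, at 269 to 372 CPM, were all below those of w1118, at 397 to 647 CPM, as happened without overlap for 7.42% of all genes. Averaged over the control and the times after injury, the differences under the female label were -0.54 (SE 0.30), -0.57 (SE 0.29) and -0.53 (SE 0.31). They were 0.01 (SE 0.08), 0.08 (SE 0.12) and 0.04 (SE 0.11) without the libraries that stand apart. Under the male label the averages were -0.03 (SE 0.30), -0.11 (SE 0.30) and 0.09 (SE 0.32). None of the 12 values was called in edgeR, at an adjusted p, where no gene was, or at an unadjusted p, beside 4.28% and 2.87% of the genes in female and male controls and 1.07% and 2.61% in the female and male averages. In female controls 8.78% of the genes did not overlap.

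Genes that act on the yolk protein genes were listed beside them. Of the sex determination list, Sxl, the switch gene of the female pathway, was the most abundant, with a median of 233 CPM and counts in 48 of 48 libraries, followed by fru, which specifies male courtship circuits, at 59.6 CPM. Doublesex (dsx) had a median of 8.23 CPM and was counted in 44 libraries, while the medians of tra, which directs dsx to its female form, and of msl-2, a subunit of the male dosage compensation complex, were 0. The counts do not separate the sex-specific splice forms of these genes. Among the factors listed for the yolk protein enhancers, Hnf4, a nuclear receptor of lipid metabolism, led with 109 CPM, the GATA factor srp was counted in 2 libraries and slbo in 0 of 48. Of the juvenile hormone list, the receptors Met and gce stood at 140 and 101 CPM and their target Kr-h1 at 77.7 CPM, and of the ecdysone list Eip75B stood at 157 CPM and the receptor EcR at 53.6 CPM.

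Of the 175 entries of the 17 lists, among which 3 genes stand in 2 lists and 2 are not in the table used, the filter kept 95 for the w1118 tests, 91 for the Tau-KO tests and 102 for those between strains. None of those tested was called at an adjusted p in the 22 comparisons by edgeR, beside 0 to 0.0399% of all genes. At the unadjusted p in the w1118 females at 2 hr, where 3.45% of all genes were higher and 1.95% lower, 0 of 6 tested sex determination genes, 0 of 5 enhancer factors and 0 of 7 juvenile hormone genes passed, and 1 of 5 ecdysone genes, the nuclear receptor ftz-f1, was lower (-1.96, SE 0.62). The median log2 fold changes were -0.70, -0.17, -0.36 and -0.25, beside -0.02 for all genes. Of 10 tested fat body genes 1 was higher, Apoltp, a lipid transfer protein (1.04, SE 0.43), and the median was 0.58. In the same comparison 7 of 12 photoreceptor genes were higher (median 1.60) and 6 of 7 tested gut digestive enzymes were lower (median -2.83). From the remaining lists, Obp99a of the head fat body list (2.61, SE 1.01) and the glial gene alrm (2.06, SE 0.78) were higher. The lipase relative CG6295 was lower (-5.95, SE 1.35). The gut list summed to 11660 CPM in control replicate 1, against 1141 and 1107 CPM in the other controls, and 5 of its 7 genes were also lower at 1 hr and at 4 hr against these controls. In the w1118 average of females against males, 1 member of the 17 lists passed at the unadjusted p, beside 0.31% of all genes. It was Obp99a, an odorant-binding protein, which was higher (1.36, SE 0.56). Its highest level, 113 CPM against a median of 9.35, was in w1118 female 2 hr replicate 2.

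Genes of the tissues that make or take up yolk proteins were present to different degrees. Of the 14 fat body genes, 7 were counted in every library. The lipophorin gene apolpp had a median of 3066 CPM, the storage protein gene Lsp2 of 1097 and the transferrin gene Tsf1 of 715, and the list summed to 2905 to 6964 CPM. Others of the list were nearly absent, with 1 count of Fbp1, 2 of Adh, 13 of Fbp2 and 13 of Lsp1gamma over all libraries. The receptor gene yl was counted in 9 of 48 libraries, 8 of the 17 genes of yolk uptake and the eggshell had no count anywhere, and the sum of that list was 0 to 23.6 CPM. The female germline list summed to 0 to 24.9 CPM, with vas in 1 library, osk in 1 and nos and bcd in 0 of 48. Of the head fat body genes reported to differ by sex, fit had a median of 0 CPM and was counted in 17 libraries, and Obp99b, an odorant-binding protein gene, had a median of 320 CPM. Over 48 libraries, which differ in depth, Pearson's r with the mean log2 CPM of the yolk protein genes was -0.16 for apolpp, 0.27 for Lsp2, 0.34 for Tsf1 and 0.67 for Obp99b. Over the 32 libraries it was -0.34, -0.61, -0.02 and -0.17. The lists did not go one way there. Of the other fat body genes, Lsd-1 was at 0.68, fon at 0.67, Lsp1beta at 0.46, Ilp6 at 0.26 and Apoltp at 0.14. Mtp was at -0.01 and AkhR at -0.04. Of the other head fat body genes, the gene to was at 0.78, Obp99a at 0.04 and sxe2 at -0.32.

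Likeness of pattern was measured for 5818 other genes by Pearson's r between their log2 CPM and the mean log2 CPM of the 3 members over the 48 libraries. The highest were pyd3, an enzyme of pyrimidine breakdown (0.84), CG16713 (0.82), retinin, a protein of the corneal lens (0.76), and TfIIEalpha, a general transcription factor (0.73). Ady43A (0.73), the NF-kappaB factor gene Rel (0.73), the serine protease gene Sp212 (0.70) and the glutamate transporter gene Eaat2 (0.70) followed. The lowest were CG33639 (-0.68), Pka-C1, the catalytic subunit of protein kinase A (-0.67), and l(2)41Ab (-0.67). In w1118 female 2 hr replicate 2, pyd3 stood at 125 CPM against a median of 35.1, and retinin at 1099 against 461.

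These likenesses rested in part on the libraries that stood apart. Without w1118 female 2 hr replicate 2, 5 of the 8 genes were still among the highest 8, and pyd3 had an r of 0.80. Over the 32 libraries 0 of the 8 were, pyd3 had an r of 0.66, Sp212 of 0.59, and the other 6 lay between -0.02 and 0.30. Leaving out the libraries farthest from the median of the members, w1118 male 4 hr replicate 1 and w1118 female 2 hr replicate 2, gave r of 0.49 to 0.74 for the 8 genes.

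**Figure D5:**
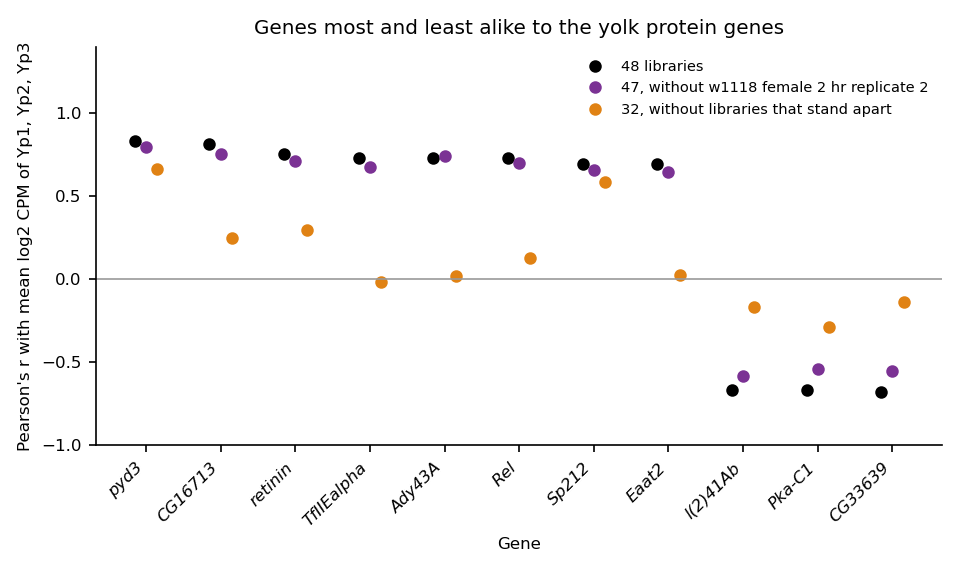
Pearson's r of the 8 genes most alike and the 3 least alike to the mean log2 CPM of Yp1, Yp2 and Yp3. Black points are over 48 libraries, purple points without w1118 female 2 hr replicate 2 and orange points over the 32 libraries that did not stand apart. The black points of the 8 genes lie between 0.70 and 0.84, and the orange points between -0.02 and 0.66.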

How the data were processed

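The authors aligned reads to the dm3 genome with STAR 2.4 after CASAVA 1.8.2 and deposited counts of reads per gene, whole numbers without normalization, for the 48 libraries of single brains made with a 3′ end kit. The table holds 16995 genes and 5 rows that name no gene, left out here, with 23.1 to 52.8% of each library. The 16 deposited tables of the authors' own comparisons (edgeR 3.22.3) were not used. Groups came from the sample labels. The replicates are separate brains. Flies were struck together in a vial, and the brains of a condition were placed in a dish for the light. Whether the libraries of a group shared a vial or a dish is not given in the sources used here. An effect of the condition cannot then be told apart from that of a vial or dish.

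Tests ran in R 4.3.3 with edgeR 4.0.16. The filter filterByExpr kept the genes (5477 tested in w1118, 5015 in Tau-KO and 5821 in all), TMM gave the scale, and the quasi-likelihood test (glmQLFTest after glmQLFit) had a mean per group and no covariate. P-values were adjusted by Benjamini-Hochberg over all genes tested. CPM are scaled by TMM over 48 libraries, and log2 CPM carry a prior count of 2. Libraries at a chi-square per degree of freedom over 4 from the nearest other library stood apart. Alternatives were DESeq2 1.42.0 and its size factors, no TMM, no filter, the replicate block and other sets of libraries. Each library was also left out, or, for the averages and the injury response, each replicate number of every group. The w1118 fit was also run on simulated counts with the real library sizes and a shared mean per gene, apart from known changes in a single group. No library was made to stand apart there, so that run cannot say how the fits behave with such libraries. Replicate numbers paired the libraries only in w1118 males at 1 hr (correlations of deviations 0.468, 0.669 and 0.210), and no source says that they mark a shared batch.

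The text names Yp1, Yp2 and Yp3, the 8 genes most and 3 least like them, roX1, roX2 and tau. It also names some of the list members that were called at an unadjusted p or were most abundant, not all of them. The members and lists were chosen with earlier results of these data known. Promoter and protein sequences were not analysed here.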

Additional observations from a re-analysis of the deposited data

How the results depend on the processing

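None of the 3 genes was called under the planned settings except as given here. Without the filter on low counts, 2 were called after injury in w1118, and without libraries under 100000 counts 1 was called in Tau-KO, which is the fit without male control replicate 1. Of 552 values under settings that leave out no single library or replicate number, 513 kept direction and call and 36 changed sign. Without the libraries that stand apart, log2 fold changes that changed sign were Yp2 -0.30 in w1118 females, 1 hr, Yp1 -0.078, Yp2 -0.28 and Yp3 -0.14 in w1118 females, 2 hr, Yp3 0.13 in w1118 males, 1 hr, Yp2 0.23 in w1118 males, 2 hr, Yp2 0.24 in w1118 males, 4 hr, Yp1 0.080 and Yp2 0.12 in w1118 females minus males, controls, Yp2 -0.057 and Yp3 -0.047 in w1118 females minus males, average, Yp1 -0.038 and Yp2 -0.23 in w1118 injury response, females minus males. They were also Yp1 -0.047 in Tau-KO females, 4 hr, Yp3 -0.088 in Tau-KO males, 1 hr, Yp3 -0.19 in Tau-KO males, 2 hr, Yp2 0.47 and Yp3 -0.18 in Tau-KO males, 4 hr, Yp3 -0.25 in Tau-KO females minus males, controls, Yp3 -0.025 in Tau-KO females minus males, average, Yp2 -0.71 and Yp3 0.29 in Tau-KO injury response, females minus males, Yp1 0.0088, Yp2 0.082 and Yp3 0.044 in Tau-KO minus w1118 females, average, Yp3 0.12 in Tau-KO minus w1118 males, controls. Under other settings the values were Yp1 0.0058 in w1118 females minus males, controls (no filter), Yp2 0.031 in Tau-KO males, 4 hr (total counts without TMM), Yp1 -0.010 in Tau-KO minus w1118 females, controls (DESeq2 size factors), Yp1 -0.026 in Tau-KO minus w1118 females, controls (no filter), Yp1 -0.012 in Tau-KO minus w1118 females, controls (DESeq2), Yp1 -0.0072 in Tau-KO minus w1118 females, controls (without libraries under 100000 counts), Yp3 3.9e-05 in Tau-KO minus w1118 females, controls (total counts without TMM), Yp1 0.020 in Tau-KO minus w1118 males, average (total counts without TMM). With the replicate number as a block, Yp1 was -0.25 in w1118 males, 2 hr and Yp1 was -0.26 in w1118 males, 4 hr, and no call changed. A group left with 1 library was assumed to vary like the others. The cause of these changes was not tested.

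Each library was left out in turn, or, for the averages and the injury response, all libraries of a replicate number. Of these 342 values, 46 changed sign and 1 was newly called. Ranges are given only where a sign or a call changed. The ranges were Yp1 -0.68 to 0.17 and Yp3 -0.80 to 0.36 in w1118 males, 1 hr, Yp1 -0.28 to 0.48, Yp2 -0.44 to 0.37 and Yp3 -0.74 to 0.24 in w1118 males, 2 hr, Yp1 -0.38 to 0.52, Yp2 -0.64 to 0.38 and Yp3 -0.72 to 0.16 in w1118 males, 4 hr. They were Yp1 -0.31 to 0.38, Yp2 -0.33 to 0.26 and Yp3 -0.39 to 0.18 in w1118 females minus males, controls, Yp1 -0.041 to 0.69 and Yp3 -0.060 to 0.72 in Tau-KO females, 2 hr, Yp1 -0.18 to 0.55 and Yp3 -0.090 to 0.69 in Tau-KO females, 4 hr. The remaining ranges were Yp1 -0.15 to 0.51, Yp2 -0.51 to 0.15 and Yp3 0.37 to 1.23 in Tau-KO males, 4 hr, Yp1 -0.88 to 0.34, Yp2 -0.35 to 0.65 and Yp3 -0.67 to 0.034 in Tau-KO injury response, females minus males, Yp1 -0.39 to 0.42, Yp2 -0.52 to 0.20 and Yp3 -0.49 to 0.29 in Tau-KO minus w1118 females, controls, Yp1 -0.81 to 0.075 in Tau-KO minus w1118 females, average, Yp1 -0.24 to 0.12, Yp2 -0.34 to 0.059 and Yp3 -0.20 to 0.45 in Tau-KO minus w1118 males, average.

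Of the 8 genes most like the members, 3 stayed among the highest 8 by Spearman's rho, 4 by deviations from group means, 4 in w1118 alone, 0 in Tau-KO alone, 0 without the libraries that stand apart and 5 without w1118 female 2 hr replicate 2, an alternative chosen after seeing the data. Counts of genes called at the unadjusted p in w1118 females at 2 hr were 296, 792 without the filter, 105 without the libraries that stand apart and 72 in the fit of the 6 libraries alone.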

Other observations

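Among the 32 libraries that did not stand apart, the make-up of the yolk protein counts moved with depth. The ratio of Yp2 to Yp1 was higher in libraries with more counts assigned to genes, with Pearson's r = 0.61 (p = 0.00019, permutation test) and Spearman's rho = 0.69 (p = 2e-05, permutation test), and r was 0.59 without the libraries of most extreme depth. The ratio of Yp3 to Yp1 was lower in deeper libraries, with r = -0.76 (p = 1e-05, the smallest that 100000 permutations can give) and rho = -0.69 (p = 4e-05, permutation test), and r was -0.76 without those libraries. Both tests were 2-sided, and the Pearson values have adjusted p of 0.00019 and 2e-05 over the 2 relations. The relations were chosen after the values were seen, so these p-values cannot measure chance and serve as descriptions only. The permutations also took the 32 libraries as independent, which was not tested. Whether the relations hold when the libraries that stood apart are included was not tested. In the 3 libraries with fewest counts among them, Yp3 was 0.345, 0.255 and 0.248 of Yp1. No group label was used in these relations.

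The lipase relatives of the yolk proteins were expressed at low levels. Of 17 genes 4 had no count in any library. The exception was w1118 female control replicate 1, in which the list summed to 1171 CPM against 103 to 222 CPM in the 32 libraries, with CG6295 at 619 CPM and CG17192 at 388 CPM. Its gut digestive enzymes summed to 11660 CPM against 673 to 1416 CPM. Its levels of Yp1, Yp2 and Yp3 were below those of all 32.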
